A study of Homo sapiens with 15 samples.

Results

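Expression of 7 genes for secreted factors of angiogenesis and bone disease, VEGFA, VEGFB, CHI3L1, SPP1, HGF, DKK1 and IGF1, was followed in 2 multiple myeloma (MM) cell lines exposed to bone marrow stromal cells. They are 7 of the 20468 genes in the expression table of each line, and all 7 were found by symbol in both tables, under the Entrez gene IDs 7422, 7423, 1116, 6696, 3082, 22943 and 3479 in that order. The genes were chosen by name with earlier results of these data known. Their own levels, differences and calls are therefore a description, and their p-values are not given. Both MM lines, MM.1S and RPMI8226, and the stromal line HS5 are established human cell lines. MM cells were cultured for 48 h alone (MONO), in a transwell hung above HS5 cells (TSW), or in the lower chamber where they shared the surface with HS5 cells (CO). MM cells occupied both chambers of this system, so TSW cells also shared medium with the MM cells below them. TSW cells thus met what crossed the transwell membrane in the shared medium, which the study states can include exosomes. CO cells met contact with HS5 cells as well. The study's methods also describe a PBS wash and trypsin for coculture, and a further input of MM cells and medium in the transwell. In comparisons with MONO these cannot be told apart from exposure to HS5 cells. RNA-Seq was made from sorted MM cells with 3 libraries per condition in MM.1S and 2 in RPMI8226, 15 in all. The labels give a repeat number for each library but do not say whether repeats were separate cultures, so p-values measure the spread between these libraries.

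Angiogenic factors are released by tumor cells and act on receptors of nearby endothelial cells, and the marrow of MM patients is known for increased vessel density. VEGFA is the main ligand of the VEGF family and acts through FLT1 and KDR, whereas VEGFB binds FLT1 but not KDR. CHI3L1 (also called YKL-40) is a secreted chitinase-like protein without enzyme activity, and SPP1 (osteopontin) is a secreted ligand of integrins and CD44 that is also part of bone matrix. HGF acts through the receptor MET, IGF1 is a growth and survival factor for MM cells that acts through IGF1R, and DKK1 blocks WNT signaling at LRP5 and LRP6 and so restrains bone-forming osteoblasts. MM bone disease combines this restraint with increased activity of bone-resorbing osteoclasts.

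Promoters are shown for CHI3L1 and SPP1, chosen after their values were seen as the members with the largest differences between conditions in RPMI8226. On GRCh38.p14, VEGFA lies on chromosome 6 from 43770211 to 43786487, VEGFB on chromosome 11 from 64234584 to 64239264, and CHI3L1 on chromosome 1 from 203178931 to 203186704. SPP1 lies on chromosome 4 from 87975714 to 87983411, HGF on chromosome 7 from 81699010 to 81770047, DKK1 on chromosome 10 from 52314281 to 52317657, and IGF1 on chromosome 12 from 102395874 to 102481839. In the set of RefSeq promoters used here, 6 of the 7 members were matched by symbol, and the promoter of VEGFA was not in this set and was not analysed here. The sequences below are the 250 bases before the gene start, 5′ to 3′ on the strand of the gene, at chr1:203186705-203186954 (minus strand) for CHI3L1 and chr4:87975464-87975713 (plus strand) for SPP1. Capitals mark matches to the motifs searched on both strands, which were AP-1 (TGANTCA), STAT (TTCNNNGAA), a composite of ATF4 and CEBP (TGATGCAA), RUNX (ACCACA) and the TATA box (TATAAA).
CHI3L1: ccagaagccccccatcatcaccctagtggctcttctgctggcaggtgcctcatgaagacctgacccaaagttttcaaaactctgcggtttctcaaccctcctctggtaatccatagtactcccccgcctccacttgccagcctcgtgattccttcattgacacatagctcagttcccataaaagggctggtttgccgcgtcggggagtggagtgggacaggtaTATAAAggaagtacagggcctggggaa
SPP1: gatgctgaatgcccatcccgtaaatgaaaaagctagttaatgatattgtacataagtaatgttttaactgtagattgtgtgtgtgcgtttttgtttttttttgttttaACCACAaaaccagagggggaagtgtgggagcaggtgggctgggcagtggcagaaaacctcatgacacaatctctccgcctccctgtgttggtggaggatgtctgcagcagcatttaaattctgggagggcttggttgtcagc
CHI3L1 held a TATA match that began 27 bases before the start, and SPP1 held a RUNX match that began 142 bases before it. Across the 250 bases of 35116 promoters, 10.7% held the TATA letters, 11.0% the RUNX letters, 6.57% the AP-1 letters, 6.57% the STAT letters and 0.772% the ATF4 and CEBP letters. Of the other members with an entry, DKK1 held the TATA letters 30 bases before its start, and 1 of both IGF1 entries held the RUNX letters 224 bases before it. The AP-1, STAT and ATF4 and CEBP letters were not in these windows for any member with an entry. A match is a description of the letters only. The GC content of the windows was 54.0% for CHI3L1 and 44.8% for SPP1.

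Expression is given as RPKM, in which the read pairs on a gene are divided by its length and by the depth of the library. Whole numbers of read pairs could be worked back from RPKM, and a library held between 9008909 and 19050583 of them on genes. A gene was tested in a line where its RPKM averaged 1 or more over the libraries, as did 10153 genes for MM.1S and 10319 for RPMI8226. VEGFA, VEGFB, SPP1 and IGF1 passed this filter in MM.1S (4 of 7), and VEGFA, VEGFB, CHI3L1, SPP1 and HGF passed it in RPMI8226 (5 of 7). SPP1 passed in both lines only through TSW and CO, where it is high, so its passing depends on the difference described. A gene was called when limma, a linear model fitted across all genes, gave a fold change over 1.5 with p below 0.05 after the Benjamini-Hochberg adjustment. Log2 differences below are differences of log2(RPKM + 1), a scale that understates the change of low genes. In bulk RNA, fewer cells that express a gene and less RNA per cell cannot be told apart. Replicate 1 of MM.1S MONO stood apart from its group. Its mean distance to the other MONO libraries over all tested genes was 43.8 on the log2(RPKM + 1) scale, against 34.9 and 35.0 for replicates 2 and 3, and it had the fewest read pairs, 9008909. The whole MONO group of MM.1S was more spread than TSW, with distances of 15.6 to 17.4, and CO, with 19.5 to 21.5. The fit used 1 estimate of spread for all groups of a line.

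VEGFA, the endothelial growth factor that leads the angiogenic group, was higher in both coculture positions than in monoculture in both lines. In MM.1S its RPKM was 8.25, 9.01 and 8.98 in MONO, 17.8, 17.7 and 17.3 in TSW, and 17.0, 18.5 and 18.1 in CO. The values of MONO lay below all others, and those of TSW and CO overlapped. MONO averaged 8.75 ± 0.429 (SD, n = 3), against 17.6 ± 0.301 (SD, n = 3) in TSW and 17.9 ± 0.767 (SD, n = 3) in CO, a ratio of means of 2.01 for TSW to MONO and 2.04 for CO to MONO. In RPMI8226 the RPKM was 10.6 and 10.3 in MONO, 17.7 and 17.7 in TSW, and 19.0 and 18.2 in CO. Here again MONO was the lowest group, and CO lay just above TSW without overlap. The means were 10.4 ± 0.228, 17.7 ± 0.0436 and 18.6 ± 0.596 (SD, n = 2) in that order, with a ratio of 1.70 for TSW to MONO and 1.79 for CO to MONO. The log2 difference was 0.93 (standard error 0.08) for TSW and 0.95 (standard error 0.08) for CO against MONO in MM.1S. In RPMI8226 the corresponding differences were 0.71 and 0.78, with a standard error of 0.08. Between CO and TSW they were 0.02 in MM.1S and 0.07 in RPMI8226, both within 1 standard error of 0. VEGFA ranked 5628th by mean RPKM in MM.1S MONO and 3559th in CO, and 5147th and 3263rd in RPMI8226. Without replicate 1 of MONO the log2 differences of VEGFA in MM.1S were 0.90 for TSW and 0.91 for CO.

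**Figure D1:**
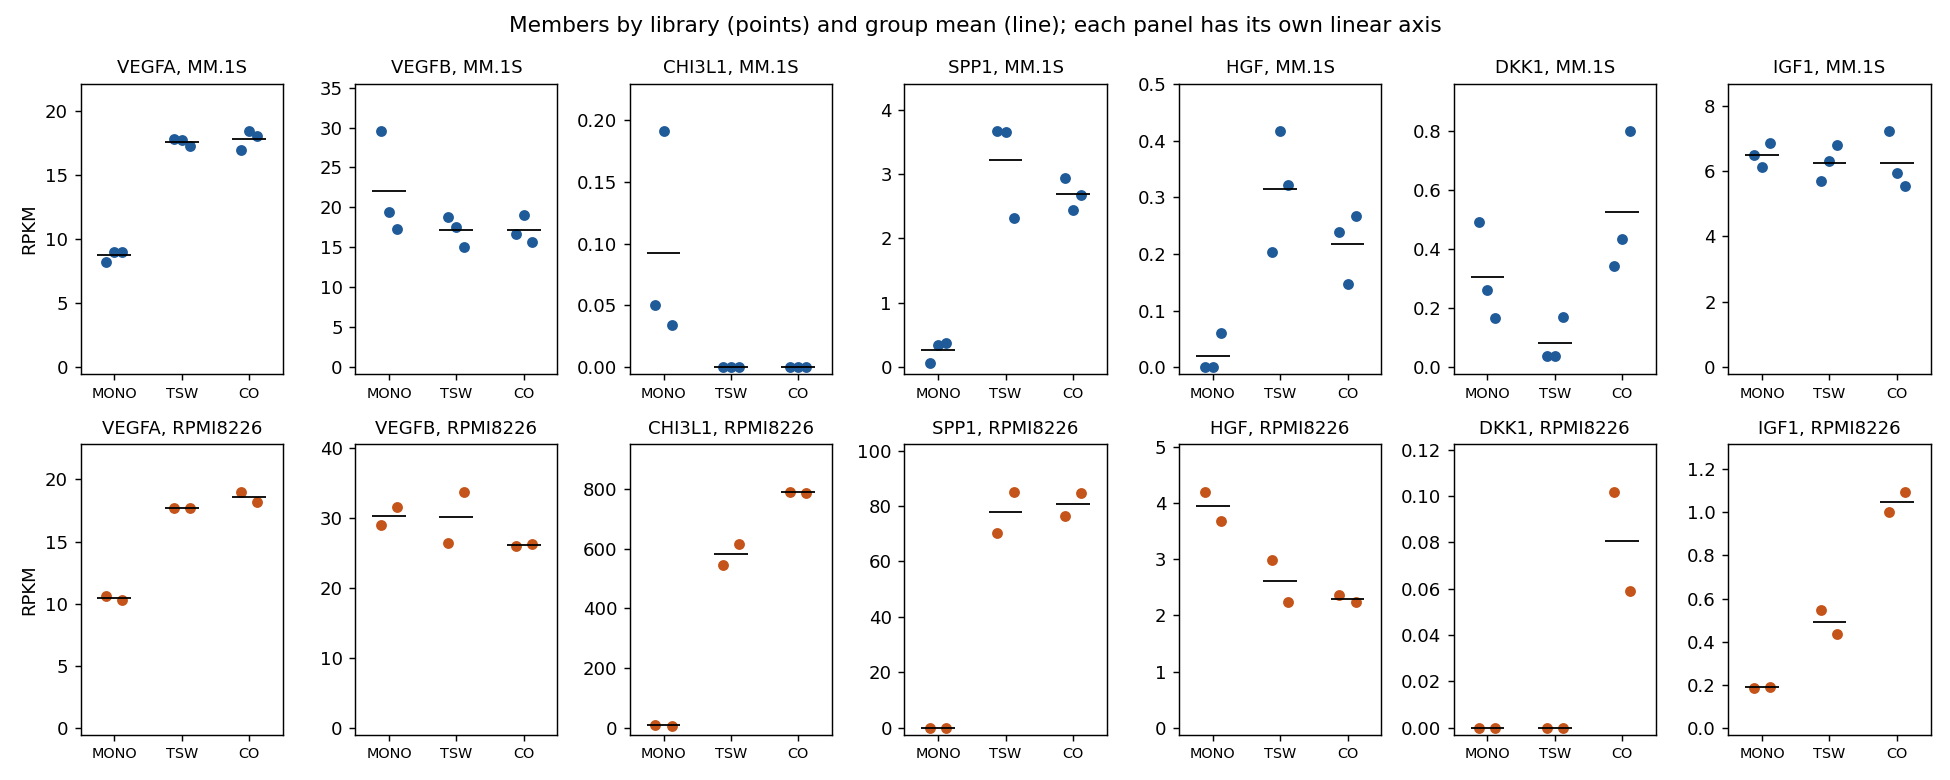
RPKM of the 7 genes in each library of MM.1S (upper row, 3 libraries per condition) and RPMI8226 (lower row, 2 per condition), with points for libraries and lines for group means, and a separate linear axis in each panel. VEGFA and SPP1 lie higher in TSW and CO than in MONO in both lines, and CHI3L1 reaches a mean of 789 RPKM in CO of RPMI8226 but 0 in CO of MM.1S.

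VEGFB, the family member with a narrower receptor range, did not follow VEGFA. Its RPKM in MM.1S was 29.6, 19.4 and 17.3 in MONO, 18.8, 17.6 and 15 in TSW, and 16.7, 19.0 and 15.6 in CO. Replicate 1 of MONO stood above the other 8 libraries, which lay between 15 and 19.4, and the 3 groups overlapped. The log2 difference was -0.32 (standard error 0.17) for both TSW and CO against MONO, and without replicate 1 of MONO it was -0.10 for both. In RPMI8226 the RPKM was 29.0 and 31.6 in MONO, 26.5 and 33.8 in TSW, and 26.0 and 26.3 in CO. The CO libraries lay just under all others, which ran from 26.5 to 33.8, with a log2 difference to MONO of -0.20 (standard error 0.11). With rescaling by median of ratios this difference was -0.098. VEGFB was the more abundant of both ligands in MONO by RPKM, 22.1 against 8.75 in MM.1S and 30.3 against 10.4 in RPMI8226. In TSW and CO of MM.1S the means of VEGFA and VEGFB lay within the spread of VEGFB, at 17.6 against 17.1 in TSW and 17.9 against 17.1 in CO.

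CHI3L1, a factor known for promoting vessel growth, was abundant in TSW and CO of RPMI8226 and near the limit of detection in MM.1S. In RPMI8226 its RPKM was 8.06 and 7.44 in MONO, 546 and 614 in TSW, and 791 and 787 in CO. The means were 7.75 ± 0.439, 580 ± 47.8 and 789 ± 2.85 (SD, n = 2), and each step from MONO to TSW to CO was without overlap. The mean of TSW was 74.8-fold and that of CO 102-fold the mean of MONO, and CO was 1.36-fold TSW. The log2 differences were 6.05 for TSW to MONO, 6.50 for CO to MONO and 0.44 for CO to TSW, with a standard error of 0.07. CHI3L1 ranked 6039th by mean RPKM in MONO, 105th in TSW and 70th in CO. In MM.1S CHI3L1 had 1, 8 and 1 read pairs in MONO and 0 in each TSW and CO library. The mean of MONO, 0.0920 RPKM, was under the 0.109 that 3 read pairs per library would give there, and with all groups under this floor no fold is given. The lines were deposited as separate tables and fitted separately, and the difference between them was not tested.

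SPP1, which links cells to bone matrix through integrins, was barely present or absent in MONO and higher in TSW and CO of both lines. In MM.1S the RPKM was 0.0612, 0.347 and 0.374 in MONO, 3.67, 3.66 and 2.31 in TSW, and 2.94, 2.44 and 2.67 in CO. The means were 0.261 ± 0.173, 3.21 ± 0.784 and 2.69 ± 0.251 (SD, n = 3). MONO did not overlap with either coculture group, and TSW and CO overlapped. The mean of TSW was 12.3-fold and that of CO 10.3-fold that of MONO, from 22 read pairs over the MONO libraries, 251 in TSW and 221 in CO. The counting interval at 95% was 7.15 to 18.0 for the ratio of pooled read pairs of TSW to MONO, 11.1, and 5.91 to 14.9 for that of CO to MONO, 9.17. In RPMI8226 both MONO libraries had 0 read pairs, and the RPKM was 70.4 and 85.2 in TSW and 76.4 and 84.8 in CO. Without replicate 1 of MONO the log2 differences of SPP1 in MM.1S were 1.61 for TSW and 1.44 for CO. In RPMI8226, against a floor of 3 read pairs per library, TSW was at least 637-fold and CO at least 660-fold higher than MONO. TSW and CO overlapped, with means of 77.8 ± 10.5 (SD, n = 2) and 80.6 ± 6.0 (SD, n = 2). Such intervals and floors cover counting error only.

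HGF, a ligand that promotes vessel growth and MM cell survival through MET, was low in both lines and differed from MONO in opposite directions. In MM.1S it had 0, 0 and 6 read pairs in MONO, 22, 48 and 32 in TSW and 29, 17 and 28 in CO, which correspond to at most 0.418 RPKM. MONO lay below TSW and CO in all libraries. The ratio of pooled read pairs was 16.5 for TSW to MONO (95% counting interval 7.32 to 46.0) and 11.3 for CO to MONO (4.93 to 31.7). All 6 read pairs of MONO were in replicate 3. The mean of MONO, 0.0200 RPKM, was under the 0.0316 that 3 read pairs per library would give there. In RPMI8226 the RPKM was 4.20 and 3.68 in MONO, 2.98 and 2.24 in TSW, and 2.36 and 2.23 in CO. Both coculture groups lay below MONO, at 0.661 and 0.583 of its mean, and overlapped with each other. The log2 differences to MONO were -0.46 for TSW and -0.58 for CO (standard error 0.12). These fell short of the fold change of 1.5, but passed it with a pseudocount of 0.1 (-0.59 and -0.75) and with voom on the recovered read pairs (-0.60 and -0.77). Leaving out single libraries also took it past that fold, at -0.61 for TSW without replicate 1 of TSW. For CO it was -0.66 without replicate 2 of MONO and -0.61 without replicate 1 of CO. Other alternatives took it toward 0, at -0.31 for TSW without replicate 2 of TSW and -0.40 with median-of-ratios scaling, and at -0.50 for CO with that scaling and -0.51 without replicate 1 of MONO.

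IGF1 was steady in MM.1S. Its RPKM was 6.49, 6.11 and 6.84 in MONO, 5.68, 6.30 and 6.79 in TSW, and 7.22, 5.95 and 5.54 in CO, and all 3 groups overlapped. The log2 differences were -0.05 for TSW and for CO against MONO and -0.01 for CO against TSW, with a standard error of 0.11. Leaving out each library in turn gave -0.10 to 0.01 for TSW to MONO and -0.15 to 0.02 for CO to MONO. For CO to TSW it gave -0.10 to 0.06. In RPMI8226 IGF1 lay under the filter with 0.185 and 0.190 RPKM in MONO, 0.545 and 0.435 in TSW, and 1.0 and 1.10 in CO, an order without overlap. The ratio of pooled read pairs, 40 in MONO, 140 in TSW and 289 in CO, was 2.62 for TSW to MONO (95% counting interval 1.83 to 3.82), 5.62 for CO to MONO (4.02 to 8.03) and 2.14 for CO to TSW (1.75 to 2.64).

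DKK1, the WNT inhibitor, was near the limit of detection in both lines. In MM.1S it had 8, 9 and 4 read pairs in MONO, 1, 1 and 4 in TSW and 10, 12 and 20 in CO. CO lay above TSW in all libraries and overlapped with MONO, and TSW overlapped with MONO. The ratio of pooled read pairs of CO to TSW was 6.59, with a 95% counting interval of 2.79 to 19.0, that of CO to MONO was 1.83, from 1.06 to 3.25, and that of TSW to MONO was 0.277, from 0.0915 to 0.710. The ratios to or from TSW rest on 6 read pairs, 4 of them in replicate 3. In RPMI8226 DKK1 had 0 read pairs in MONO and TSW and 5 over the CO libraries, so all groups were under the floor and no fold is given.

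**Figure D2:**
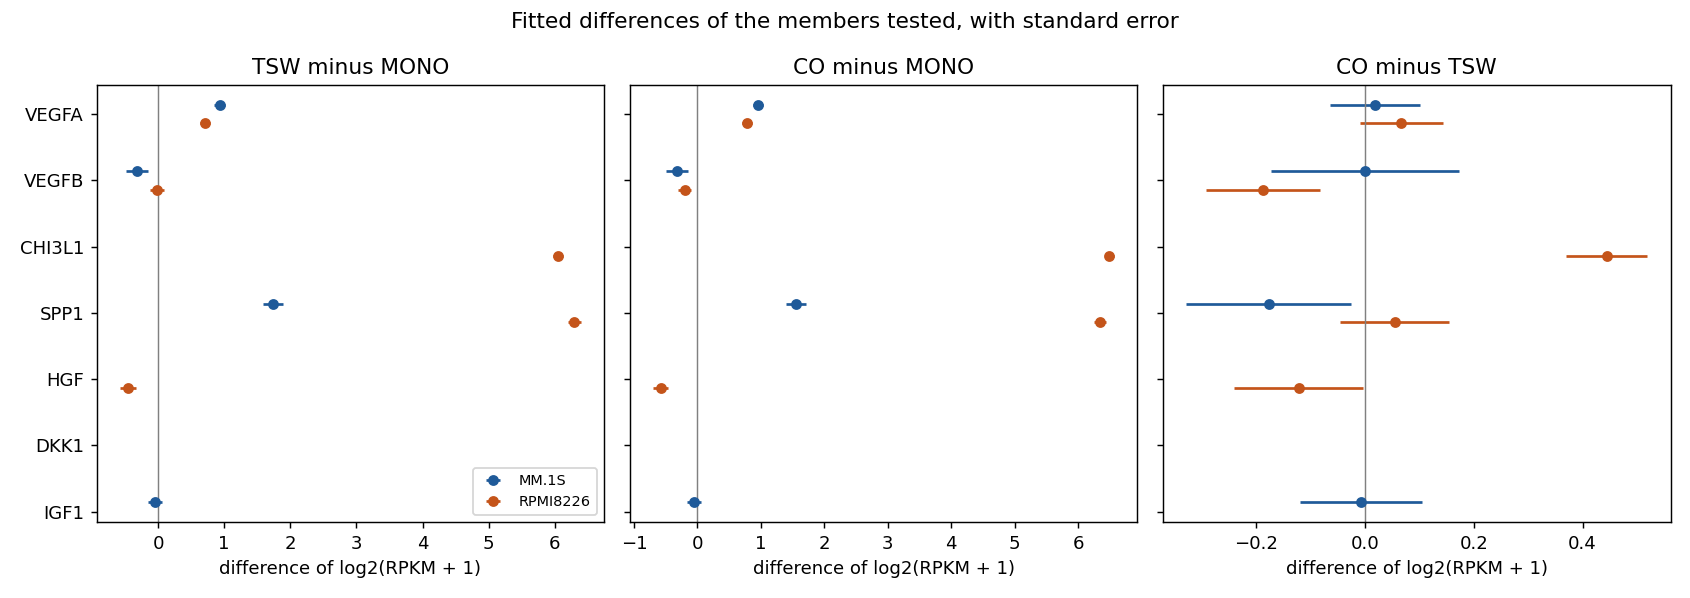
Differences of log2(RPKM + 1) of the members tested, with bars for the standard error, for TSW minus MONO, CO minus MONO and CO minus TSW, with MM.1S in blue and RPMI8226 in orange and a separate axis range in each panel. VEGFA and SPP1 lie right of 0 against MONO in both lines, and the differences between CO and TSW all lie between -0.19 and 0.44.

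Of the members tested, 2 of 4 were called higher against MONO in MM.1S in TSW and in CO (VEGFA and SPP1), and 3 of 5 in RPMI8226 in TSW and in CO (VEGFA, CHI3L1 and SPP1). Among all genes tested in MM.1S, 6.48% were called higher and 4.16% lower in TSW than in MONO, and 7.13% higher and 4.65% lower in CO than in MONO. In RPMI8226 these shares were 14.5% higher and 17.9% lower in TSW, and 16.4% higher and 22.9% lower in CO. Between CO and TSW, limma called 0 of 4 members in MM.1S and 0 of 5 in RPMI8226, and voom also called 0 in each line. For CO against TSW, the share of all tested genes called higher was 0.374% in MM.1S and 1.9% in RPMI8226, and the share called lower 0.0394% and 2.39%. The members were selected on results of these comparisons, so nothing is read from their counts. TSW and CO of a line are compared with the same MONO libraries. The comparisons called 658 genes higher and 422 lower for TSW to MONO, 724 and 472 for CO to MONO, and 38 and 4 for CO to TSW in MM.1S. In RPMI8226 they called 1500 and 1852, 1693 and 2363, and 196 and 247.

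Markers of stromal cells were present in CO, where HS5 cells share the chamber and the study's methods state that a small share of them remained after sorting. Of 34 stromal markers, 31, 31 and 33 were above 0 in the CO libraries of MM.1S, with a summed RPKM of 185, 202 and 168, against 17.6 to 18.3 in TSW and 25.5 to 28.3 in MONO. The most abundant was MMP1, an interstitial collagenase, at 44.5, 46.9 and 41.0 RPKM in CO and 0 in MONO and TSW, whereas CAV1 led the list in MONO and TSW. In RPMI8226 the sum was dominated by FN1 (fibronectin), at 3990 and 4310 RPKM in MONO, 1678 and 1962 in TSW and 2007 and 2169 in CO. The 6 defining markers (COL1A1, COL1A2, COL3A1, LUM, PDGFRB and THY1) summed to 25.4, 31.9 and 24.7 in CO of MM.1S, against at most 0.251 in TSW and MONO. In RPMI8226 they summed to 7.84 and 10.3 in CO, against at most 0.194 in TSW and 0.550 in MONO. The collagen genes COL1A2 and COL3A1 and the proteoglycan gene LUM were at 0 in all MONO and TSW libraries of both lines. Of 17 stromal markers tested in MM.1S, 15 were called higher in CO than in MONO and 16 higher than in TSW. Of 14 in RPMI8226, 12 and 10 were called higher, and FN1 was called lower in CO than in MONO (-0.99). Most of those called higher passed the filter through groups other than MONO. Of the 15 and the 12 called higher than MONO, 14 and 10 averaged under 1 RPKM in MONO. Values that differ between CO and TSW, including those of DKK1 in MM.1S and of IGF1 and CHI3L1 in RPMI8226, stand beside these markers, whose part in the results was not tested. For TSW against MONO the 6 defining markers were near 0 in both groups. Of the stromal markers tested for TSW against MONO in MM.1S, limma called 0 higher and 1 lower (CAV1, -0.72). In RPMI8226 it called 1 higher (LOX, 0.68, under 1 RPKM in MONO) and 2 lower (FN1, -1.19, and CAV1, -0.66). TAGLN, at 0.55 in TSW of RPMI8226, fell short of the fold.

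**Figure D3:**
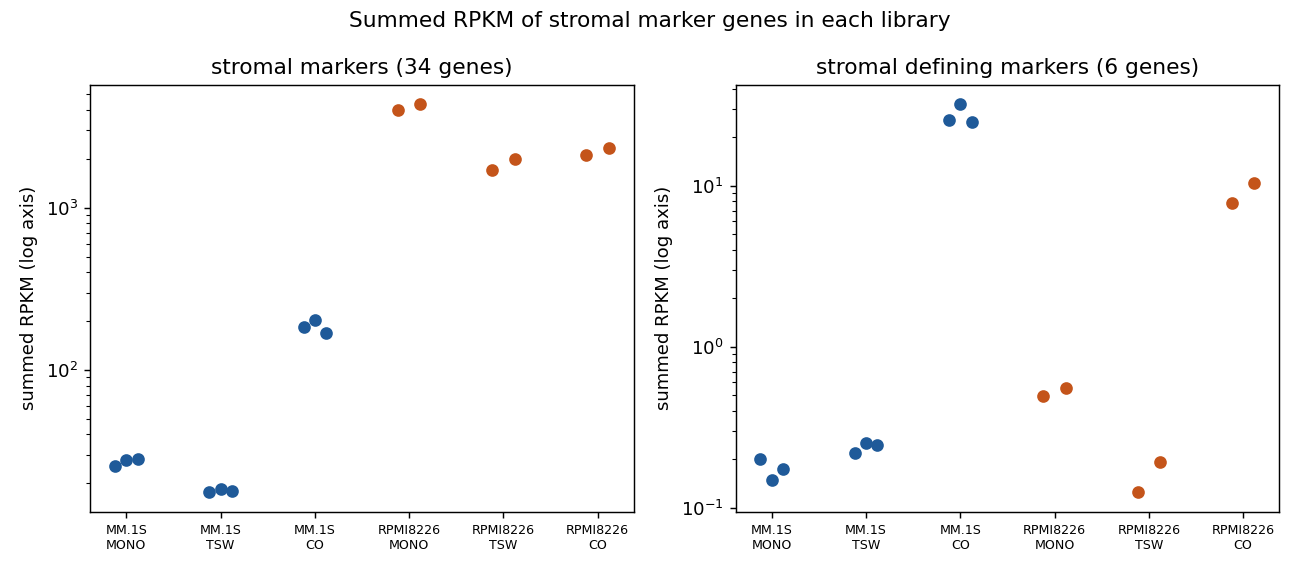
Summed RPKM of the 34 stromal markers (left) and of the 6 defining markers (right) in each library by line and condition, on a log axis. The defining markers sum to between 24.7 and 31.9 in CO of MM.1S and to 7.84 and 10.3 in CO of RPMI8226, and to at most 0.550 elsewhere.

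The 9 plasma cell markers were above 0 in every library, with sums of 3497 to 5869 RPKM in MM.1S and 2337 to 4410 in RPMI8226 and JCHAIN (the joining chain of immunoglobulins) the most abundant. CD38, a surface marker of plasma cells used in sorting, lay between 38.4 and 65.0 RPKM in MM.1S. In RPMI8226 CD38 was 16.0 in both MONO libraries, 49.6 and 42.0 in TSW and 52.2 and 53.7 in CO. Of 9 plasma markers tested in MM.1S, 2 were called higher and 2 lower in TSW and in CO against MONO, and of 8 in RPMI8226 5 and 2. TNFRSF17 (BCMA), with the largest difference to MONO of this list in both lines, fell from a mean of 173 RPKM in MONO to 48.2 in TSW and 37.9 in CO of MM.1S, and from 70.9 to 5.42 and 4.05 in RPMI8226 (log2 differences -1.80, -2.14, -3.50 and -3.83). IRF4, a transcription factor of plasma cells, was called lower in RPMI8226, with log2 differences of -0.94 in TSW and -0.93 in CO, and was not called in MM.1S, with 0.40 and 0.12. XBP1 and PRDM1, factors of plasma cell differentiation, were called higher in TSW and CO of both lines, with log2 differences of 0.87 and 0.77 for XBP1 and 0.75 and 0.68 for PRDM1 in MM.1S, and of 1.24 and 1.08, and 0.94 and 1.12, in RPMI8226. MZB1 was called higher in RPMI8226 (1.06 and 0.76). SLAMF7 was near 0 in RPMI8226, at no more than 0.104 RPKM. The stromal surface marker THY1 was 0.453 to 0.570 RPKM in CO of MM.1S, and no more than 0.0629 in MONO and TSW of that line. In RPMI8226 THY1 was 0.0767 and 0.111 in CO, 0 in TSW and at most 0.0669 in MONO.

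The known transcriptional regulators of VEGFA and of the hypoxia response, a list of 12 genes, held called genes in both lines, all of them higher than in MONO. This list and those below were written with earlier results of these data known. The study had reported JUNB and ATF4 as higher in TSW than in MONO, and STAT3 as a leading gene of an upregulated pathway. The counts, medians and p-values of the lists are therefore a description. Of 10 tested in MM.1S, 4 were called higher and 0 lower in TSW and in CO against MONO, with a median log2 difference of 0.26 and 0.43, against 0.01 for all tested genes in both. Of 11 in RPMI8226, 5 in TSW and 6 in CO were called higher and 0 lower, with medians of 0.51 and 0.72 against -0.08 and -0.09. Among all tested genes, 6.48% in TSW and 7.13% in CO of MM.1S were called higher, and 14.5% and 16.4% in RPMI8226. For CO against TSW limma called 0 of 10 in MM.1S and 0 of 11 in RPMI8226, with 1 and 6 at an unadjusted p under 0.05 and 0 called by voom in either line. In RPMI8226 HIF1A (0.27), EPAS1 (0.24), EGLN1 (0.34) and EGLN3 (0.40) passed the adjusted limit on p and fell short of the fold only. JUNB, an AP-1 subunit, had the largest difference to MONO of this list in both lines, from 17.8, 15.7 and 14.2 RPKM in MONO to 81.8, 81.7 and 78.2 in TSW of MM.1S (log2 difference 2.28, limma adjusted p = 6.89e-08). In RPMI8226 JUNB rose from 25.1 and 21.5 RPKM to 177 and 191 in TSW (2.93, limma adjusted p = 1.35e-09). HIF1A, the oxygen-regulated factor, rose from 21.5 and 21.6 to 115 and 104 in TSW and 134 and 131 in CO of RPMI8226. In MM.1S HIF1A was 3.51, 9.87 and 10.1 in MONO and 16.4, 19.4 and 18.3 in TSW, with a log2 difference of 1.22 that became 0.79 without replicate 1 of MONO. STAT3, the factor downstream of IL6, rose from a mean of 15.5 in MONO to 44.8 in TSW and 41.3 in CO of MM.1S. It rose from 17.8 to 58.9 and 54.8 in RPMI8226. ATF4, a factor of the stress response, rose by 1.19 in TSW and 0.85 in CO of MM.1S and by 0.69 and 0.75 in RPMI8226 on the log2 scale, and had the highest mean RPKM of the list in both lines. EGLN3 and, in CO, SP1 were also called higher in RPMI8226 (log2 differences to MONO of 0.69 and 1.10 for EGLN3 in TSW and CO, and 0.72 for SP1). The list mixes activators with inhibitors of the hypoxia response (EGLN1, EGLN2, EGLN3, HIF1AN and VHL), so no direction of VEGFA regulation is read from its median. HIF1AN fell short of the fold only, at -0.30 in TSW and -0.29 in CO of MM.1S and -0.30 and -0.35 in RPMI8226. In RPMI8226 VHL (0.23 and 0.43) and, in CO, EGLN1 (0.35) fell short of it in the other direction.

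The receptors of VEGF were at or near 0 in both lines. KDR was 0 in every library, FLT1 was at most 0.0309 RPKM, and FLT4 at most 0.0110. NRP2, a coreceptor, was the only gene of this list other than VEGFA and VEGFB that was tested, and only in RPMI8226, with 3.10 to 3.97 RPKM over the 6 libraries. It was not called, with limma log2 differences of 0.08, 0.26 and 0.18 for TSW to MONO, CO to MONO and CO to TSW, and voom called it in 0 comparisons. For CO to MONO it passed the limit on p but not the fold (limma adjusted p = 0.0276). VEGFC was 1.10, 1.5 and 1.11 RPKM in CO of MM.1S, against at most 0.403 in TSW and MONO. In RPMI8226 VEGFC was 0 in MONO and TSW and 0.588 and 1.07 in CO, at least 10.5-fold higher than in TSW. NRP1, another coreceptor, was 0.824, 0.917 and 0.914 RPKM in CO of MM.1S and 0.475 and 0.841 in CO of RPMI8226, and at most 0.0341 elsewhere. VEGFC and NRP1 were under the filter, stromal markers were present in the same CO libraries, and their part in these values was not tested.

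Of 14 other secreted angiogenic factors, 6 were tested in MM.1S, with 2 called higher and 1 lower in TSW and 3 higher and 1 lower in CO against MONO. TYMP (thymidine phosphorylase) rose from 1.14, 0.763 and 0.649 RPKM to 4.04, 3.82 and 3.24 in TSW of MM.1S, and from 58.5 and 62.3 to 217 and 235 in TSW of RPMI8226. GDF15, a stress cytokine, was called higher in TSW and CO of MM.1S (log2 differences 1.32 and 0.91), from 0.278, 0.437 and 0.126 RPKM in MONO. GDF15 and TYMP in MM.1S, and ANGPTL4 and PDGFA in RPMI8226, averaged under 1 RPKM in MONO and passed the filter through TSW and CO, so their testing, and the counts and medians of this list, depend on the difference described. FGF2, an endothelial growth factor, was called higher in CO of MM.1S (0.66), where stromal markers were also present. ADM (adrenomedullin), a vasodilator peptide and the most abundant gene of this list in MM.1S, fell from 102, 108 and 93.4 RPKM in MONO to 43.6, 45.3 and 43.1 in TSW. The log2 differences of ADM were -1.18 in TSW and -1.02 in CO. In RPMI8226, 8 were tested, with 4 called higher in TSW (TYMP, ANGPTL4, PDGFA and ANG), 3 in CO (TYMP, ANGPTL4 and PDGFA) and 0 lower, against 6 and 4 called by voom. The shares of all tested genes called higher there were 14.5% in TSW and 16.4% in CO. ADM in TSW of RPMI8226, at 13.8 and 14.5 RPKM against 21.3 and 21.8 in MONO, fell short of the fold only, with a log2 difference of -0.57 (limma adjusted p = 9.72e-05). ANGPT1 in TSW of RPMI8226 also fell short of the fold only, at -0.53 (limma adjusted p = 0.00279). The median log2 differences of the list were 0.37 in TSW and 0.53 in CO of MM.1S, and 0.50 and 0.44 in RPMI8226. Between CO and TSW limma called 0 of 6 in MM.1S and 0 of 8 in RPMI8226, with 2 and 4 at an unadjusted p under 0.05 and 1 and 1 called by voom. FGF2 in MM.1S (0.5848) passed the adjusted limit on p and fell just short of the fold. In RPMI8226 ADM (0.37), ANGPTL4 (0.49) and PDGFB (-0.33) also fell short of the fold only.

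Among the chitinase-like genes and the partners of CHI3L1, CHI3L2, its closest relative, was called higher in MM.1S, with 0.413, 0.391 and 0.140 RPKM in MONO, 2.0, 1.63 and 1.51 in TSW and 1.31, 1.42 and 2.16 in CO. The log2 differences to MONO were 1.05 and 0.99. It passed the filter with a mean of 1.22 RPKM through these coculture groups. In RPMI8226 CHI3L2 was at most 0.628 RPKM. TMEM219, a receptor component for CHI3L1, rose in RPMI8226 from 13.5 and 13.3 RPKM to 28.2 and 31.9 in TSW and 22.3 and 25.7 in CO (log2 differences 1.10 and 0.79, limma adjusted p = 2.57e-06 and 2.09e-05). In MM.1S TMEM219 was 6.70 to 11.4 RPKM and was not called. Of 3 genes tested in MM.1S and 2 in RPMI8226, 1 was called higher in TSW and in CO against MONO in each line and 0 lower, with medians of 0.11 and -0.08 in MM.1S and 0.62 and 0.30 in RPMI8226. Between CO and TSW limma and voom called 0 in both lines, with 0 and 2 at an unadjusted p under 0.05. In RPMI8226 TMEM219 (-0.31) and CHID1 (-0.33) passed the adjusted limit on p and fell short of the fold only. IL13RA2, the other receptor component, was at most 0.670 RPKM in CO of either line and at most 0.0393 elsewhere. CHID1 had 16.9 to 23.8 RPKM in MM.1S, and 10.8 to 14.6 in RPMI8226, and was not called.

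Of the 11 relatives and receptors of SPP1, 5 were tested in each line. In RPMI8226 4 of these were called higher and 0 lower in TSW and in CO against MONO, namely the integrin subunits ITGAV, ITGB1, ITGB5 and ITGA4. Among all genes tested in RPMI8226, 14.5% were called higher in TSW and 16.4% in CO. ITGAV rose from 11.0 and 10.0 RPKM to 21.3 and 19.6 in TSW and 26.7 and 25.9 in CO, and ITGB5 from 28.6 and 31.2 to 66.8 and 76.3 in TSW. The call of ITGB1 in TSW (0.61) was lost without replicate 1 of TSW (0.56). For CO against TSW limma called 0 of 5 in either line, with 1 at an unadjusted p under 0.05 in MM.1S and 3 in RPMI8226, and voom called 0 and 1. In RPMI8226 ITGB1 (0.39) and ITGAV (0.35) passed the adjusted limit on p and fell short of the fold only. The median log2 difference of the 5 was 0.89 in TSW and 1.07 in CO, against -0.08 and -0.09 for all tested genes. In MM.1S 1 was called higher and 1 lower in each comparison with MONO. CD44, a receptor of SPP1 and hyaluronan, fell from 69.2, 97.4 and 96.8 RPKM in MONO to 50.2, 52.0 and 47.1 in TSW and 40.1, 39.2 and 34.4 in CO. The log2 differences were -0.79 in TSW and -1.18 in CO (limma adjusted p = 0.00141 and 9.48e-05). In RPMI8226 CD44 was 0.876 to 1.48 RPKM. ITGAV in MM.1S was called higher by 0.61 in TSW and 0.67 in CO, with limma adjusted p = 0.0471 and 0.0306. The call in TSW was lost in 9 of 14 alternatives, among them a pseudocount of 0.1, no filter, and the fits without replicate 1 of MONO or any 1 library of TSW or CO, with a range from 0.31 to 0.79. The call in CO was lost in 5 of 14, with no filter and without replicate 1 of MONO or any 1 library of CO, with a range from 0.37 to 0.84. The median of the 5 genes tested was -0.35 in TSW and -0.20 in CO of MM.1S. MONO replicate 1 had the lowest ITGAV value, 1.79 RPKM against 4.07 and 4.38. The bone matrix genes of the SPP1 family (IBSP, DMP1, DSPP and MEPE) were at most 0.0456 RPKM in every library.

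The HGF axis held 9 further genes. MET, its receptor, was 1.10, 1.99 and 1.87 RPKM in MONO of MM.1S, 0.521, 0.536 and 0.610 in TSW and 0.968, 0.570 and 0.695 in CO, all below MONO. In RPMI8226 MET was at most 0.490 RPKM, and it was under the filter in both lines. Of 5 tested in MM.1S, 0 were called in TSW and 0 in CO against MONO with limma or voom, with 2 at an unadjusted p under 0.05 in each. ST14 in TSW (-0.31) and CO (-0.28) and SPINT2 in CO (-0.42) passed the adjusted limit on p and fell short of the fold only. In RPMI8226, 2 of 5 were called higher in TSW and 2 in CO, and 0 lower. Among all genes tested in that line, 14.5% were called higher in TSW and 16.4% in CO. The medians of the list were -0.13 and -0.06 in MM.1S and 0.56 and 0.25 in RPMI8226 for TSW and CO against MONO. No call by limma or voom, 0 of 5, separated CO from TSW in either line, with 0 and 2 at an unadjusted p under 0.05. In RPMI8226 SPINT2 (-0.37) and SDC1 (-0.25) passed the adjusted limit on p and fell short of the fold only. SPINT1, a Kunitz inhibitor of HGF activation, rose from 11.2 and 11.7 RPKM to 17.4 and 21.8 in TSW and 22.2 and 22.3 in CO. SPINT2, a related inhibitor and the most abundant of the list in RPMI8226, was called in TSW (0.61), and GAB1, an adaptor of MET, in CO (0.77). The call of SPINT2 was lost without replicate 1 of MONO or replicate 2 of TSW, at 0.53 to 0.69 over 12 alternatives. That of SPINT1 in TSW was lost without replicate 2 of TSW (0.57). SDC1 (syndecan-1), which binds HGF, was the most abundant of the list in MM.1S at 143 to 184 RPKM and was not called. ST14 (matriptase), a protease that activates HGF, had 127 to 174 RPKM in MM.1S and was not called.

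Of the 14 further genes of the IGF axis, 7 were tested in MM.1S and 6 in RPMI8226. In MM.1S limma called 0 in TSW against MONO, with 1 at an unadjusted p under 0.05 and 1 called by voom, and 1 lower in CO. IRS2 in TSW of MM.1S (-0.52) passed the adjusted limit on p and fell short of the fold only. In RPMI8226 1 was called higher and 2 lower in TSW and in CO. The medians were 0.02 and -0.05 in MM.1S and -0.09 and -0.15 in RPMI8226. IGF1R, the receptor, had 5.01 to 9.26 RPKM in MM.1S and 5.08 to 6.36 in RPMI8226, and was not called in any comparison. INSR fell in RPMI8226 from 5.03 and 5.10 RPKM to 2.83 and 2.77 in TSW and 2.76 and 2.97 in CO (log2 differences -0.67 and -0.65). Its call in CO was lost with median-of-ratios scaling, over a range from -0.82 to -0.56 in the alternatives. IGFBP3, which binds IGF1 in the extracellular space, fell from 26.4 and 30.6 RPKM to 7.01 and 8.90 in TSW and 8.97 and 10.1 in CO of RPMI8226 (limma adjusted p = 6.1e-07 and 1.24e-06). IGFBP4, another binding protein, rose from 0.502 and 0.755 to 1.33 and 1.80 in TSW and 2.96 and 4.0 in CO, having passed the filter through these groups, and was called higher in CO than in TSW (log2 difference 0.80, limma adjusted p = 0.00354), where stromal markers were also present. Its call in TSW against MONO was lost without replicate 1 of MONO or replicate 2 of TSW. In MM.1S IGFBP4 was 0.944, 1.57 and 1.26 RPKM in CO and at most 0.298 elsewhere, in libraries where stromal markers were also present. IRS2, an adaptor of IGF1R, was called lower in CO of MM.1S (-0.58, limma adjusted p = 0.00395), and the call was lost without replicate 1 of MONO or without replicate 2 of CO, over a range from -0.73 to -0.48. IGF2R was the most abundant of the list in RPMI8226, with 63.6 to 86.0 RPKM.

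The DKK1 and WNT antagonist list had 14 further genes, and most were at or near 0. DKK2, SOST and, in RPMI8226, SFRP4 and FRZB were at 0 in every library. LRP5 and LRP6, the receptors that DKK1 blocks, had 8.50 to 10.8 and 1.12 to 3.33 RPKM in MM.1S and 16.0 to 19.5 and 1.64 to 2.17 in RPMI8226. The medians of the list were 0.00 and -0.04 in MM.1S and -0.05 and -0.14 in RPMI8226 for TSW and CO against MONO. KREMEN2, a DKK1 coreceptor, had 6.05 to 10.8 RPKM in RPMI8226 and CTNNB1 (beta-catenin), the most abundant of the list, 39.0 to 57.5. Of 3 tested in MM.1S and 4 in RPMI8226, limma and voom called 0 in every comparison, with up to 2 at an unadjusted p under 0.05. In RPMI8226 KREMEN2 passed the adjusted limit on p but not the fold in TSW against MONO (0.39) and CO against TSW (-0.47). CTNNB1 did so in TSW (-0.24) and CO (-0.46) against MONO of that line. Leaving out single libraries gave 1 call in CO against MONO of MM.1S, without replicate 3 of MONO, and 1 in CO against TSW of RPMI8226, without replicate 2 of CO.

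Regulators of osteoclasts, which include cytokines, chemokines and the inhibitor TNFRSF11B, were 16 genes, of which 4 were tested in MM.1S and 3 in RPMI8226. CCL3, a chemokine that stimulates osteoclasts, fell in MM.1S from 189, 136 and 117 RPKM in MONO to 50.0, 71.6 and 53.3 in TSW and 13, 19.7 and 13.9 in CO. The groups did not overlap, and the log2 differences were -1.31 for TSW to MONO, -3.16 for CO to MONO and -1.85 for CO to TSW (limma adjusted p = 0.000907, 1.4e-06 and 0.00073). In RPMI8226 CCL3 was 0 in MONO and at most 1.05 RPKM elsewhere. IL1B was high in CO only, with 9.89, 11.1 and 12.3 RPKM in MM.1S and 11.3 and 20.6 in RPMI8226, against at most 0.112 and 0.474 in the other groups. IL6 was 6.44 and 6.25 RPKM in CO of RPMI8226 and 0 in MONO and TSW, at least 153-fold higher than in TSW, and was 2.39 to 2.96 in CO of MM.1S. IL1B and IL6 were called higher in CO of RPMI8226, and IL1B in CO of MM.1S. In these CO libraries MMP1 was 35.1 and 53.2 RPKM in RPMI8226 and at least 41.0 in MM.1S, and the part of stromal markers in these values was not tested. In TSW against MONO limma called 1 of 4 lower in MM.1S and 0 of 3 in RPMI8226, with 3 and 0 at an unadjusted p under 0.05 and 1 called by voom in each. In that comparison ANXA2 in MM.1S (-0.51) passed the adjusted limit on p and fell short of the fold only. In CO against MONO 1 was called higher and 2 lower in MM.1S, and 2 higher and 0 lower in RPMI8226, and in CO against TSW 1 and 1, and 2 and 0. IL1B in both lines and IL6 in RPMI8226 passed the filter through CO alone, so their calls are part of how they were selected, and no median of the list is given. ANXA2, the annexin that supports osteoclast precursors, was called lower in CO of MM.1S (-0.66), a call lost without replicate 1 of MONO or without replicate 1 of CO, over a range from -0.82 to -0.57. TNFSF11 (RANKL) and TNFRSF11B (osteoprotegerin) were at most 0.114 and 0.143 RPKM.

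**Figure D4:**
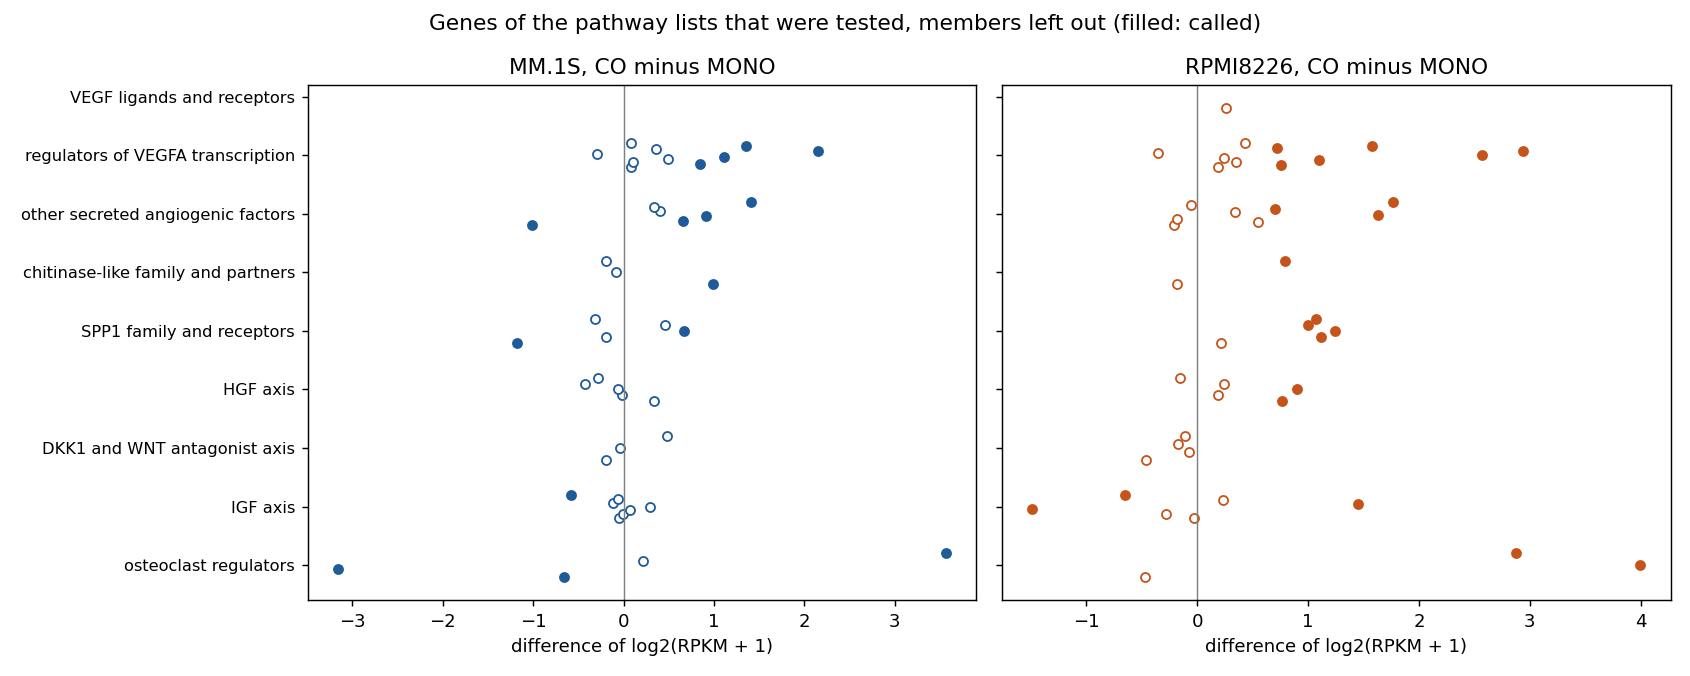
Differences of log2(RPKM + 1) between CO and MONO for the tested genes of the pathway lists, members left out, in MM.1S (left) and RPMI8226 (right), with filled points for called genes. Regulators of VEGFA transcription lie mostly right of 0 in both lines, and CCL3 at -3.16 is the point farthest to the left in MM.1S.

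Across the 9 pathway lists together, 104 genes other than the members were listed, of which 43 were tested in MM.1S and 45 in RPMI8226. In MM.1S 8 were called higher and 3 lower in TSW against MONO, and 10 and 5 in CO. In RPMI8226 17 were called higher and 2 lower in TSW, and 19 and 2 in CO. In CO against TSW 1 was called higher and 1 lower in MM.1S, and 3 and 0 in RPMI8226. Among all tested genes, 6.48% were called higher and 4.16% lower in TSW than in MONO of MM.1S, and 7.13% and 4.65% in CO. In RPMI8226 these shares were 14.5% and 17.9% in TSW, and 16.4% and 22.9% in CO. Of the listed genes called higher than MONO, 3 of 8 in TSW and 4 of 10 in CO of MM.1S averaged under 1 RPKM in MONO, as did 3 of 17 and 5 of 19 in RPMI8226. These passed the filter through the groups where they are high. Of the listed genes called higher in CO than in TSW, 1 of 1 and 2 of 3 averaged under 1 RPKM in TSW. The median log2 difference of the listed genes was 0.05 in TSW and 0.08 in CO of MM.1S and 0.27 and 0.34 in RPMI8226, against 0.01, 0.01, -0.08 and -0.09 for all genes tested.

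Genes whose levels followed a member most closely were found by Pearson's r of log2(RPKM + 1), a description over the libraries of a line. For VEGFA they were BHLHE40, SREBF1 and ICAM1 in MM.1S over 9 libraries (r between 0.996 and 0.997) and P2RX1, FUCA1 and CASP8 in RPMI8226 over 6 (r between 0.999 and 1.0). BHLHE40 averaged 5.67 RPKM in MONO of MM.1S, 35.7 in TSW and 37.4 in CO. For SPP1 they were CALCOCO2, KIAA1191 and GEMIN2 in MM.1S (0.989 to 0.993) and ELF3, MYBPC2 and OASL in RPMI8226. ELF3 had mean RPKM of 3.78, 77.4 and 79.7 in MONO, TSW and CO. For CHI3L1 in RPMI8226 they were CTSS, LRG1 and HLA-F, with LRG1 at 3.36, 75.3 and 88.8. For VEGFB the closest were RAB1B, NOP53 and NUDC in MM.1S, for HGF in RPMI8226 NDC80, UBE3D and PLRG1, and for IGF1 in MM.1S CD164, TRAM1 and CDKN1B. Libraries of 1 condition share their treatment, so r does not separate a difference between conditions from the spread between libraries. For VEGFB and IGF1 in MM.1S the conditions overlapped, and VEGFB had its highest value in replicate 1 of MONO.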

How the data were processed

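RNA-Seq was measured in 15 libraries of sorted MM cells. According to the labels and the study's methods, the authors aligned paired reads to hg38 with Subread and counted them on genes with featureCounts. The deposited values are log2(RPKM + 1) with an offset of 0.0001, which was subtracted, and the authors deposited 1 table per line. Genes were matched by Entrez ID, and all value columns belonged to the 15 libraries. Read pairs were worked back from the steps between RPKM of low genes, and for 100% of entries above 0 the outcome was whole to within 0.05. Conditions of a line entered 1 fit on log2(RPKM + 1) with limma (version 3.58.1, under R version 4.3.3). Low genes are given as pooled read-pair ratios with exact conditional intervals (95% level). Lines were fitted separately and were not tested against each other. Alternatives were a pseudocount of 0.1, no filter, a minimum average of 5 RPKM, rescaling by median of ratios, a replicate block, voom and each library left out. The members and the gene lists were chosen with earlier results of these data known. Genes named are the members, called genes of each list with its most abundant gene, receptors and partners, stromal and plasma markers, and the 3 genes most like a tested member, except VEGFB in RPMI8226, for which they are not reported; a few further list genes were named after their values were seen. Symbols of 5 of 153 listed genes were spelled differently in the tables. Further software was Python (3.11.15), pandas (2.3.3), numpy (2.4.6), scipy (1.17.1) and, for figures, matplotlib (3.10.9).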

Additional observations from a re-analysis of the deposited data

Results flagged for a closer look

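HGF differed from MONO in opposite directions in MM.1S and RPMI8226, with all TSW and CO libraries on 1 side of all MONO libraries in each line. The sign of CHI3L1 also differed between the lines, with log2 differences to MONO of 6.05 in TSW and 6.50 in CO of RPMI8226 and -0.12 for both in MM.1S. In MM.1S, however, the mean RPKM of all groups was under the floor, the RPKM that 3 read pairs per library would give. Of the 10 read pairs, 8 were in replicate 2 of MONO, so no direction is read from them. For HGF in MM.1S the mean of MONO was also under its floor (0.0200 against 0.0316 RPKM). The means of TSW (0.315) and CO (0.218) were above it. For HGF the log2 difference was 0.36 for TSW and 0.25 for CO in MM.1S, and -0.46 and -0.58 in RPMI8226.

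JCHAIN, a plasma cell marker called in both lines, had log2 differences to MONO of -0.85 in TSW and -0.91 in CO of MM.1S, and of 0.80 and 1.02 in RPMI8226. FN1, a stromal marker also expressed by RPMI8226 cells in MONO, had log2 differences to MONO of 2.27 in CO and -0.13 in TSW of MM.1S, and of -0.99 and -1.19 in RPMI8226. The signs thus differed in CO and not in TSW, and in CO other stromal markers were present, whose part was not tested. The difference between the lines was not tested for any of these genes.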

How the results depend on the processing

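The log2 difference of VEGFA against MONO was positive under every alternative run. In MM.1S it was 1.0 in TSW and 1.02 in CO, both with a pseudocount of 0.1 and with voom. In RPMI8226 TSW it was 0.76 with that pseudocount, 0.79 with median-of-ratios scaling and 0.77 with voom, and in CO 0.83, 0.88 and 0.84. Leaving out each library in turn gave 0.75 to 0.81 for CO to MONO and 0.0357 to 0.0977 for CO to TSW in RPMI8226. In MM.1S it gave -0.00521 to 0.0518 for CO to TSW, so the sign of that difference was not fixed. For CO against TSW in MM.1S, 134 genes were called with no filter on low values and 7 with a mean RPKM of at least 5, where fewer genes were tested. In RPMI8226 voom called 671 for CO against TSW, and leaving out each library gave 321 to 719, the highest without replicate 1 of TSW. The cause was not tested. Where this leaves a lone library in a group of RPMI8226, that library is assumed to vary like the other groups.

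Repeat numbers were not treated as pairs. Correlations of same-number libraries ran from -0.38 to 0.286 in MM.1S. In RPMI8226 they were all positive, from 0.164 to 0.271, but 2 libraries per group are too few to tell whether the numbers pair them. The labels do not say whether TSW and CO libraries of 1 number came from the same wells. With the replicate block, 1081 genes were called for TSW to MONO and 1209 for CO to MONO in MM.1S, and 3353 and 4059 in RPMI8226.

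The log2 difference of SPP1 depends on the pseudocount, at 1.73 in TSW of MM.1S against 3.32 with a pseudocount of 0.1. With 9008909 to 19050583 read pairs per library, CHI3L1 in MM.1S and DKK1 in RPMI8226 had too few read pairs for a fold to be given.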
